A study of Mus musculus with 4 samples.

Results

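The GATA factors are the 6 genes Gata1 to Gata6, taken by symbol from the 27998 genes of the count tables, and all 6 were measured in each of 4 libraries. They encode zinc finger proteins that bind DNA at the letters GATA. By convention Gata1, Gata2 and Gata3 are called the haematopoietic members, since Gata1 drives red cell and megakaryocyte formation, Gata2 acts in blood progenitors and endothelium, and Gata3 is best known from T cells. Gata4, Gata5 and Gata6 act in the heart and in organs of the endoderm, where they work with partners such as Nkx2-5, Tbx20 and Hand2, and the FOG proteins Zfpm1 and Zfpm2 bind to both groups as cofactors.

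Single cells were profiled from Swiss Webster embryos of the genotype Mesp1Cre;Rosa26-GFPflox/+ on embryonic days E8.0 and E8.25 (early) and E9.5 and E10.5 (late), with 1 library of pooled embryos per stage, and 4 values in a row are given in this order. Cre from the Mesp1 gene of early mesoderm turns on GFP for good, so the sort was for descendants of Mesp1-expressing cells. Cells were sorted as GFP-positive and DAPI-negative, and other tissue of the embryo was not sought. Genes of other tissue, such as neural crest, were still counted at E8.25. For the early stages the upper part of the body was dissected, and for the late ones the heart and pharyngeal apparatus, so region and stage cannot be told apart. No stage had a replicate, stages were not tested against each other, and every interval given with a level covers counting error only.

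After filtering, 7118 cells with a median of 21321 UMIs (counted molecules) remained at E8.0, 2884 with 35216 at E8.25, 3921 with 17254 at E9.5 and 7525 with 15205 at E10.5, and pairs of libraries shared 16 to 88 cell barcodes. Cells were placed in compartments by marker genes: cardiac (such as Tnnt2 and Ttn), endothelial (Cdh5, Pecam1), blood (embryonic and adult globins), mesenchyme (Prrx1, Twist1), splanchnic (Foxf1, Wnt2) and mesothelial (Wt1, Upk3b). The cardiac gate held 256, 32, 355 and 149 cells in stage order, the endothelial gate 348, 158, 192 and 360, the blood gate 150, 320, 5 and 1025, and the mesenchyme gate 278, 107, 716 and 2102. The marker genes of its own list summed to 16689 to 30579 CPM (UMIs of a gene, scaled to the same total in every sum) in the cardiac gate and to 856 to 1680 CPM in the endothelial gate. The mesenchyme, splanchnic and mesothelial gates are cut from a continuous score and are ranges, not types. Within 1.5-fold of the cut there were 654 to 2550 cells per library for mesenchyme, 277 to 924 for the splanchnic gate and 59 to 237 for the mesothelial gate. Between 1799 and 5765 cells per library passed no gate and are called ungated. In them the neural crest genes Sox10, Foxd3 and Tfap2b summed to 19.2 CPM at E8.25, beside 0.0894 at E8.0.

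Promoter windows of RefSeq (build GRCm38.p6, 250 bases before to 50 after an annotated start, 5′ to 3′ on the gene's strand) are shown for Gata1, Gata2, Gata3 and Gata5, to place annotated starts of these members. The words AGATAA, its variant AGATAG, the related TGATAA and its variant TGATAG, which GATA factors bind, were searched on both strands and are in capitals where present. Gata1, on the reverse strand at chrX:7967861-7968160, and Gata5, on the reverse strand at chr2:180334630-180334929, held none. Gata2 has 2 windows, at chr6:88193641-88193940 and chr6:88198414-88198713 on the forward strand, and held none in either. Gata3, on the reverse strand at chr2:9878551-9878850, held 1, at position 287 of its window. Of 32851 windows of the same length over all genes, 29.8% held at least 1 of these words.
Gata1: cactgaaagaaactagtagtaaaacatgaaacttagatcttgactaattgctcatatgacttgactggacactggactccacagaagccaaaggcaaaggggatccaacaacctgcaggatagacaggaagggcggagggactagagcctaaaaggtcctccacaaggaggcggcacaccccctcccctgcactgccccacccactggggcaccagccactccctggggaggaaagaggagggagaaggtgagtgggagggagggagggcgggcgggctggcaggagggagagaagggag
Gata2 (first window): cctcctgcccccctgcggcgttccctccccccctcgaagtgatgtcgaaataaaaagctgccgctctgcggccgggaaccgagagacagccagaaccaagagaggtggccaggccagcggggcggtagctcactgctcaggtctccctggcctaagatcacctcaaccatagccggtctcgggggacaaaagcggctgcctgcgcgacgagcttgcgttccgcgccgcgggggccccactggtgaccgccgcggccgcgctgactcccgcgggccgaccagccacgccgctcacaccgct
Gata2 (second window): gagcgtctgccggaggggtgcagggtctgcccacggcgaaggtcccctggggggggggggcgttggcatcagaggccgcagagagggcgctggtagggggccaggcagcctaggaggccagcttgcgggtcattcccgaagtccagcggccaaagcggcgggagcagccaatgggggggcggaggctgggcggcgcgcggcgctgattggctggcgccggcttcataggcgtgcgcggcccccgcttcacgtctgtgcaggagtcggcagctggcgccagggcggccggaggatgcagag
Gata3: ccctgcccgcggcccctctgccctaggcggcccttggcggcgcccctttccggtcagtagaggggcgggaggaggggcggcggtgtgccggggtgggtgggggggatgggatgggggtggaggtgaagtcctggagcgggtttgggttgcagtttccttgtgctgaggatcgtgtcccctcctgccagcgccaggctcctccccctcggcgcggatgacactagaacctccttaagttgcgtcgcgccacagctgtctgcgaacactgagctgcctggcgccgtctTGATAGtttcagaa
Gata5: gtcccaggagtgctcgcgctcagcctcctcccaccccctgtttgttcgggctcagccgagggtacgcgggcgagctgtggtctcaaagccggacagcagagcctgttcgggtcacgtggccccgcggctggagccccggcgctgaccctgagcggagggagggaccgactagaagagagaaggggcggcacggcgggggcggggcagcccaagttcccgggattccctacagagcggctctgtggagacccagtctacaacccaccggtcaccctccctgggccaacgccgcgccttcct

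In the same build the whole genes lie at chrX:7959260-7976663 (Gata1), chr6:88193891-88207032 (Gata2), chr2:9857078-9887953 (Gata3), chr14:63198914-63271712 (Gata4), chr2:180325088-180335503 (Gata5) and chr18:11052510-11085636 (Gata6). On the reverse strand the higher coordinate is the upstream end. The windows of Gata1, Gata3 and Gata5 lie downstream of that end, so they do not show the upstream limit of these genes. The identifiers in the files are ENSMUSG00000031162, ENSMUSG00000015053, ENSMUSG00000015619, ENSMUSG00000021944, ENSMUSG00000015627 and ENSMUSG00000005836, in the order Gata1 to Gata6. The kit reads the 3' end of transcripts, so a UMI is 1 molecule whatever its length, and the 2 starts of Gata2 cannot be told apart.

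Gata6 was the most abundant member in all 4 libraries. Over all retained cells it stood at 54.0, 31.1, 77.6 and 44.3 CPM in stage order. Gata4 stood at 18.9, 7.84, 33.3 and 16.9 CPM and Gata5 at 23.7, 9.26 and 34.3 CPM, with 19.2 to 20.8 as its interval at E10.5. All 3 cardiac members were thus highest at E9.5 and lowest at E8.25, with E8.0 above E10.5. The last step of that order turned for Gata4 when globin, mitochondrial and ribosomal protein genes were left out of the total, with 26.6 CPM at E8.0 and 26.8 at E10.5.

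Gata1, which drives erythroid genes, had the widest range, at 7.60, 23.6, 1.81 and 18.2 CPM. The share of retained cells in the blood gate was 2.11%, 11.1%, 0.128% and 13.6%, lowest at E9.5 as Gata1 was, but highest at E10.5 where Gata1 was highest at E8.25. Gata2 fell from 8.24 CPM at E8.0 to 4.79 at E8.25, and its late levels of 3.67 (95% Poisson interval 3.24 to 4.14) and 3.77 (3.44 to 4.12) did not differ beyond counting error. Gata3 stood at 7.22, 4.61, 7.11 and 8.14 CPM, with the E8.25 level below the intervals of all others and the levels of E8.0 and E9.5 each within the other's interval (6.79 to 7.66 and 6.50 to 7.76).

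**Figure D1:**
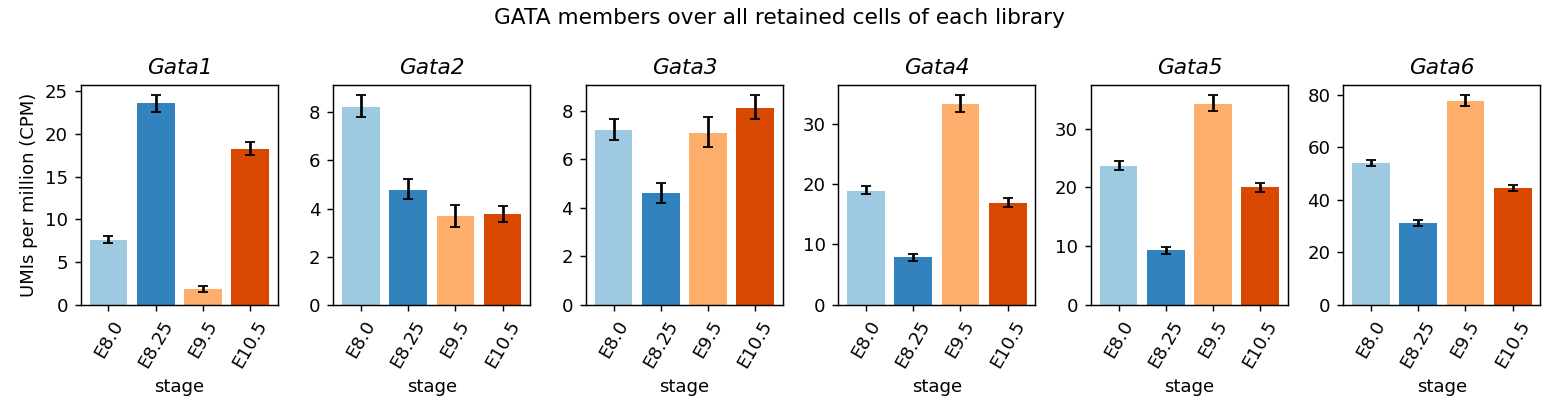
Level of each GATA member over all retained cells (vertical axis, CPM, a separate scale per panel) in the 4 libraries by stage, with exact 95% Poisson intervals. Gata4, Gata5 and Gata6 are highest at E9.5, and Gata1 is lowest there at 1.81 CPM.

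Among the gates Gata1 was highest in blood. The blood gate held 73.7%, 87.0%, 18% and 90.0% of its UMIs in stage order, and ungated cells 24.6%, 10.6%, 81.2% and 6.86%. Its level in the blood gate was 167 CPM (156 to 179) at E8.0, 126 (121 to 132) at E8.25 and 74.8 (71.6 to 78.1) at E10.5, and 180 (114 to 269) in the 5 blood cells of E9.5. In the other gates with at least 20 cells it lay between 0 and 5.57 CPM. At least 1 Gata1 UMI was found in 148 of 150 blood cells at E8.0, 319 of 320 at E8.25, all 5 at E9.5 and 802 of 1025 at E10.5. These levels are shares of all UMIs, and globin took up 47395 CPM of the blood cells at E8.0, 111633 at E8.25 and 456417 at E10.5.

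Globin UMIs were found in every gate. They give the Gata1 level that free RNA from blood cells would carry if it held both in the ratio of those cells, which was not tested. Endothelial cells at E8.25 carried 3064 globin CPM, which at the Gata1 to globin ratio of the blood cells corresponds to 3.47 Gata1 CPM, beside a measured 3.86. At E8.0 the same calculation gave 0.448 CPM beside a measured 0.710 in endothelium and 0.637 beside 2.30 in ungated cells. In cardiac cells of E8.0 it gave 0.424 beside 1.93, a level that rests on 9 UMIs. At E10.5 it gave 0.827 CPM beside a measured 1.5 in endothelium and 0.819 beside 3.94 in ungated cells. At E8.25 the Poisson intervals of Gata1 in endothelium (2.29 to 6.10) and in mesenchyme (3.4 to 8.60, at 5.57) held the values calculated from globin, 3.47 and 3.46.

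Single cells with several Gata1 UMIs were also found outside the blood gate. At E9.5, 17 cells outside the gate had 3 or more Gata1 UMIs and held 96 Gata1 UMIs together, and 13 of them were marked by megakaryocyte genes such as Pf4 and Gp9. At E10.5 there were 17 such cells, 16 of them megakaryocyte-marked. Over all megakaryocyte-marked cells the level was 205 CPM (163 to 256) in the 17 cells of E9.5 and 223 (184 to 269) in the 23 of E10.5. At E8.0 none of 26 such cells was megakaryocyte-marked, 7 were marked by Etv2, Tal1, Lmo2 and Kdr, genes of the precursors of blood and endothelium, and 11 had a Gata2 UMI. These 26 cells, all ungated, had a median of 38.8 blood marker UMIs per 10000, below the gate cut of 200. The median of all ungated cells of E8.0 was 1.19.

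Gata2 marked the endothelium at every stage. The Gata2 level in the endothelial gate was 40.2 CPM (35.6 to 45.1), 38.2 (32.8 to 44.2), 28.7 (23.2 to 35.1) and 28.4 (24.5 to 32.8) in stage order. In all other gates with at least 20 cells it was at most 3.03 CPM. Ungated cells marked by Etv2, Tal1, Lmo2 and Kdr had as much, at 43.7 CPM (40.3 to 47.4) in 572 cells at E8.0 and 42.9 (36.5 to 50.1) in 98 cells at E8.25. In the blood gate Gata2 was 1.97, 2.56 and 0.606 CPM at E8.0, E8.25 and E10.5.

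Gata3 was spread more evenly. In endothelium it was 7.10 CPM at E8.0, within 7.77 to 13.9 at E8.25, and 15.1 and 15.9 at the late stages, and in mesenchyme it was 8.61, 1.39, 8.94 and 8.27 CPM. In the cardiac gate it was 2.57, 0.995 and 1.98 CPM at the first 3 stages and 11.3 (7.59 to 16.3) at E10.5, where 19 of 149 cells carried it. Ungated cells held 86.7% of all Gata3 UMIs at E8.0, where they were 81.0% of retained cells. At E10.5 they held 56.4% and were 35.9% of retained cells.

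Gata4, Gata5 and Gata6 were high in the cardiac gate throughout. Gata4, a core factor of heart muscle, was 87.4 CPM (79.1 to 96.3), 82.6 (65.8 to 102), 62.5 (56.4 to 69.1) and 63.7 (54.3 to 74.3) in stage order. Gata5, which acts in heart precursors and endocardium, was 155 CPM (144 to 167), 94.5 (76.4 to 116), 44.2 (39.0 to 49.8) and 70.0 (60.1 to 81.0). Gata6, which acts in heart muscle and the outflow tract, was 170 CPM (159 to 183), 169 (145 to 197), 120 (111 to 129) and 187 (170 to 204). The intervals of the early and late Gata5 levels did not overlap at E8.0 against E9.5 and E10.5.

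In the endothelial gate the cardiac members differed between the early and the late libraries. Gata4 was 5.68 CPM (4.06 to 7.73) at E8.0 and 3.0 (1.64 to 5.04) at E8.25, but 45.3 (38.4 to 53.2) and 46.8 (41.7 to 52.3) at the late stages. Gata5 was 2.27 (1.30 to 3.69) and 3.22 (1.80 to 5.31) early and 46.9 (39.8 to 54.8) and 41.4 (36.6 to 46.6) late. Gata6 was present at all stages, at 23.8, 24.7, 42.3 and 68.0 CPM. The late libraries came from tissue dissected around the heart, and the part of that change in region was not tested.

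The splanchnic and mesothelial gates also carried the cardiac members. In splanchnic cells, which surround the gut tube and include precursors of the inflow pole of the heart, Gata6 was 156, 157, 96.6 and 55.9 CPM, Gata5 61.9, 59.2, 59.0 and 45.9, and Gata4 54.5, 47.0, 45.6 and 35.7. Mesothelial cells, the covering layer that includes the epicardium, had 8.41 CPM of Gata4 (3.85 to 16.0, 28 cells) at E8.25 and then 93.9 (78.8 to 111, 68 cells) and 68.5 (61.4 to 76.2, 219 cells). The epithelial genes Epcam, Cdh1, Krt8 and Krt18 summed to 4544 CPM in the mesothelial cells of E8.25, above the 717 CPM of their mesothelial markers, and to 466 beside 958 and 589 beside 1852 CPM in those of the late libraries, and their part in these levels was not tested. Mesenchyme had 3.06 to 23.5 CPM of Gata4, 10.3 to 25.6 of Gata5 and 36.1 to 58.0 of Gata6, and blood at most 2.96 CPM of any of them.

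**Figure D2:**
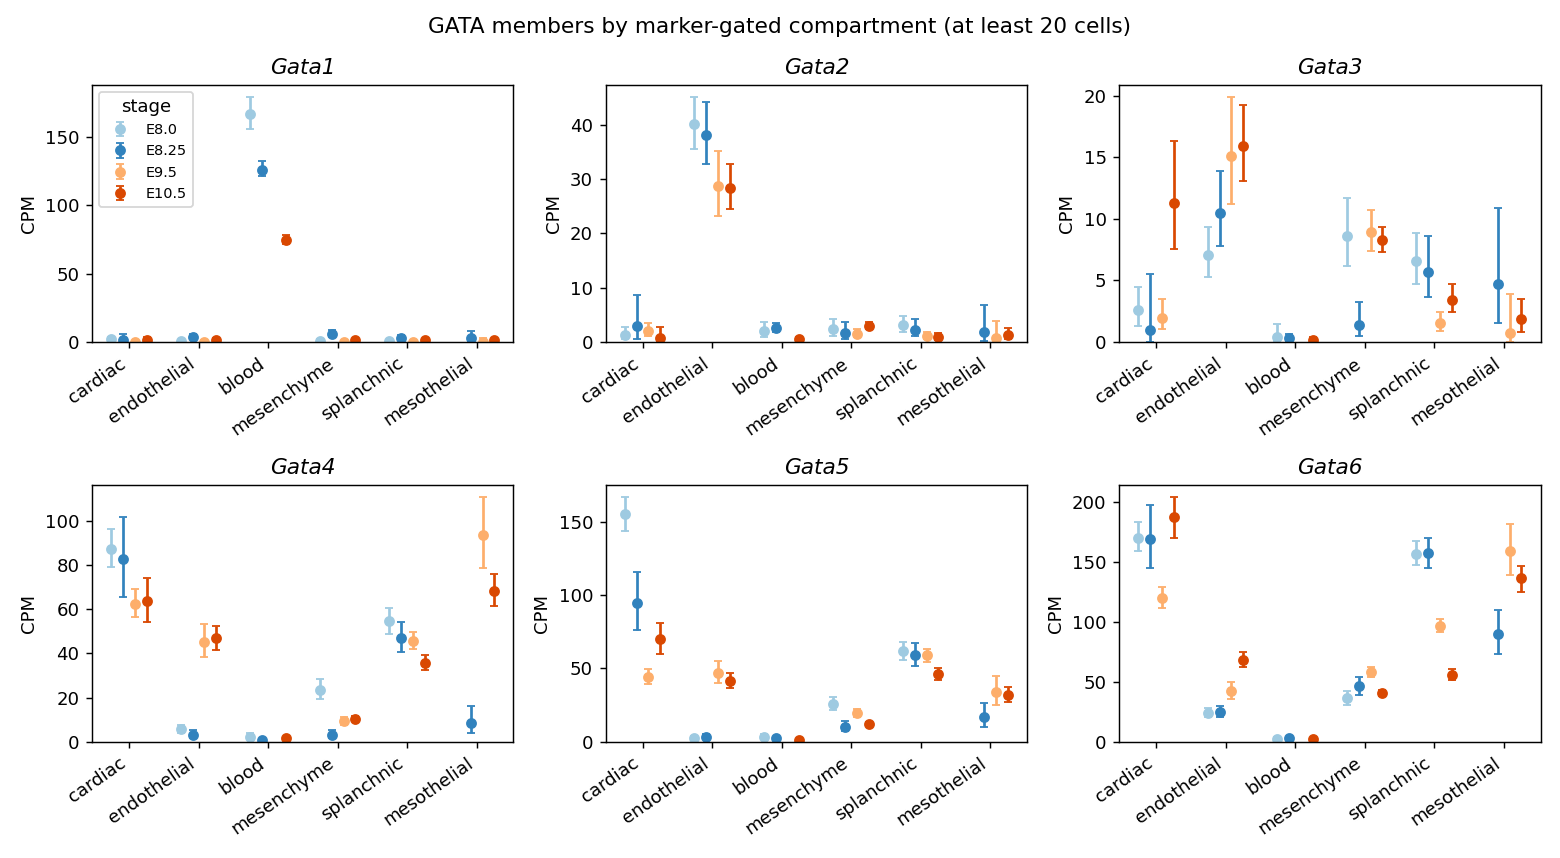
Level of each GATA member (vertical axis, CPM, a separate scale per panel) in 6 marker-gated compartments (horizontal axis) with colours for the 4 stages and exact 95% Poisson intervals, drawn for sums of at least 20 cells. Gata1 is high in blood only and Gata2 in endothelium only among these gates, and Gata4 and Gata5 in endothelium are near 0 at the early stages and above 40 CPM at the late ones.

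Compartments were compared with each other over the libraries, with UMIs summed per library and compartment and the library as a block in edgeR. Between the cardiac and the endothelial gate, 5 of the 6 members passed the test, against 41.5% of all genes tested. Gata4 (log2 fold change 1.84 ± 0.63 SE, edgeR adjusted p = 0.027), Gata5 (2.11 ± 0.66, adjusted p = 0.016) and Gata6 (2.06 ± 0.35, adjusted p = 0.00016) were higher in cardiac cells. Gata2 (-4.28 ± 0.35, edgeR adjusted p = 4.3e-08) and Gata3 (-1.59 ± 0.59, adjusted p = 0.039) were higher in endothelium. Gata4, Gata5 and Gata3 no longer passed without the E8.0 library (edgeR adjusted p = 0.093, 0.086 and 0.094) or without the E8.25 library (0.14, 0.12 and 0.065), and Gata3 not without E9.5 (0.20) either, while Gata6 and Gata2 passed in each case. The cardiac excess of Gata4 differed between libraries, with 87.4 against 5.68 CPM at E8.0 and 63.7 against 46.8 at E10.5. That of Gata5 was not seen in every library, with 155 against 2.27 CPM at E8.0 but 44.2 against 46.9 at E9.5.

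Against mesenchyme, 3 members were higher in cardiac cells and none lower, with 35.6% of all genes called. These were Gata4 (2.96 ± 0.65, edgeR adjusted p = 0.0019), Gata5 (2.60 ± 0.64, adjusted p = 0.0042) and Gata6 (1.95 ± 0.35, adjusted p = 0.00035), and all 3 were higher in cardiac cells in 4 of 4 libraries. Gata1 (0.18 ± 0.67), Gata2 (-0.35 ± 0.40) and Gata3 (-0.71 ± 0.59) did not pass. Between endothelium and mesenchyme only Gata2 passed, at 3.93 ± 0.29 (edgeR adjusted p = 2.4e-08), with 32.9% of genes called. Gata4 (1.12 ± 0.65, edgeR adjusted p = 0.20) passed only when the E8.0 library was left out, at 1.96 (adjusted p = 0.041).

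Between endothelium and blood all 6 members passed, in a contrast that called 59.6% of all genes. Gata1 was lower in endothelium by 6.96 ± 0.47 on the log2 scale (edgeR adjusted p = 2.3e-09), and Gata3 (4.77 ± 0.79, adjusted p = 5.9e-05), Gata2 (3.71 ± 0.33, adjusted p = 7.0e-08), Gata6 (3.09 ± 0.45, adjusted p = 1.5e-05), Gata4 (2.92 ± 0.81, adjusted p = 0.0050) and Gata5 (2.46 ± 0.81, adjusted p = 0.014) were higher. Blood entered with 3 libraries, since E9.5 had 5 blood cells. In those libraries the blood gate held only 2, 5 and 4 Gata3 UMIs, so the size of the Gata3 difference rests on few counts. The scaling matters here, because with plain library totals the median log2 fold change of all genes was 0.82 instead of -0.02, and 91.0% of called genes were higher there instead of 49.0%. All 6 members kept their direction and passed under that scaling, which gave medians of -0.14 for cardiac cells and -0.13 for endothelium against mesenchyme. Without the E10.5 library Gata4 (edgeR adjusted p = 0.076) and Gata5 (0.22) no longer passed, and Gata5 not without E9.5 (0.064).

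Between splanchnic cells and mesenchyme no member passed in edgeR, where 1.21% of genes were called. At an unadjusted p under 0.05 there were 3, where 8.27% of all genes were under it, namely Gata6 (1.39 ± 0.34, edgeR adjusted p = 0.055), Gata4 (2.19 ± 0.63, adjusted p = 0.12) and Gata5 (1.81 ± 0.62, adjusted p = 0.24), and DESeq2 called 2 of them, Gata6 and Gata4 (adjusted p = 0.0083 and 0.027). All 3 were higher in splanchnic cells in each of the 4 libraries. Gata6 passed with all gate cuts halved (edgeR adjusted p = 0.029) or doubled (0.049), with no filter on low counts (0.025) and without the E10.5 library (0.023).

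**Figure D3:**
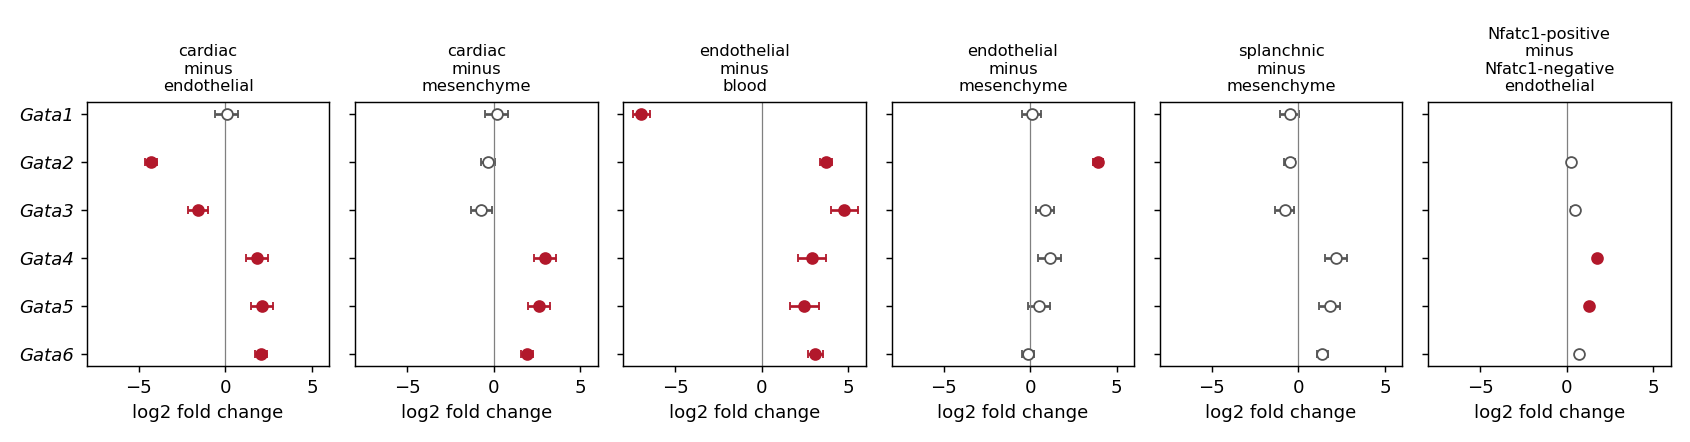
Log2 fold change of each member (points, horizontal axis) with 1 SE in 6 compartment contrasts, filled red where the edgeR adjusted p was under 0.05. Gata2 is the member furthest toward endothelium against cardiac cells at -4.28, and Gata1 the furthest toward blood at -6.96, and Gata1 was not tested in the last panel.

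Nfatc1 is a marker of the endocardium, the endothelium that lines the heart, and the endothelial gate was split by whether a cell had an Nfatc1 UMI. The positive cells numbered 115, 44, 76 and 144 and the negative cells 233, 114, 116 and 216 over the 4 stages. In late libraries Gata4 was 82.5 CPM (68.2 to 99.0) in positive and 17.9 (12.4 to 25.0) in negative cells of E9.5, and 80.5 (70.2 to 91.7) and 22.7 (18.2 to 28.0) in those of E10.5. At E8.0 and E8.25 it was 8.43 and 4.78 CPM in positive and 4.17 and 2.19 in negative cells, with overlapping intervals. Gata5 followed the same course, with 76.8 against 24.7 CPM at E9.5 and 65.3 against 24.3 at E10.5, but 1.61 against 2.63 at E8.0. So did Gata6, with 67.6 against 23.7 CPM at E9.5 and 97.4 against 47.0 at E10.5. Its early levels were 25.3 against 23.1 at E8.0 and 23.2 against 25.3 at E8.25.

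Over the 4 libraries Gata4 was higher in Nfatc1-positive cells by 1.77 ± 0.18 (edgeR adjusted p = 0.00047) and Gata5 by 1.32 ± 0.21 (adjusted p = 0.019), so 2 of the 5 members tested passed, against 0.116% of all genes, which is 11 of 9451. Gata6 (0.71 ± 0.19, edgeR adjusted p = 0.21), Gata3 (0.48 ± 0.20, adjusted p = 0.57) and Gata2 (0.25 ± 0.13, adjusted p = 0.67) did not pass. With the E10.5 library left out neither Gata4 (edgeR adjusted p = 0.11) nor Gata5 (1.00) passed. Gata5 also failed without E9.5 (edgeR adjusted p = 0.52) and in DESeq2 (adjusted p = 0.72), where Gata4 passed, and neither passed without the library block (edgeR adjusted p = 1.00 for each).

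Depth and cardiac RNA were measured beside this split. Nfatc1-positive cells were a little deeper, with late medians of 18150 against 15715 and 18369.5 against 17919 UMIs. Cardiac marker genes summed to 256 CPM in positive and 165 in negative cells at E9.5 and to 239 and 114 at E10.5, beside 30579 and 30441 in cardiac cells. At the ratio of Gata4 to these markers in cardiac cells, that RNA corresponds to 0.524 and 0.501 CPM of Gata4 in the positive cells of the late libraries, beside the measured 82.5 and 80.5.

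**Figure D4:**
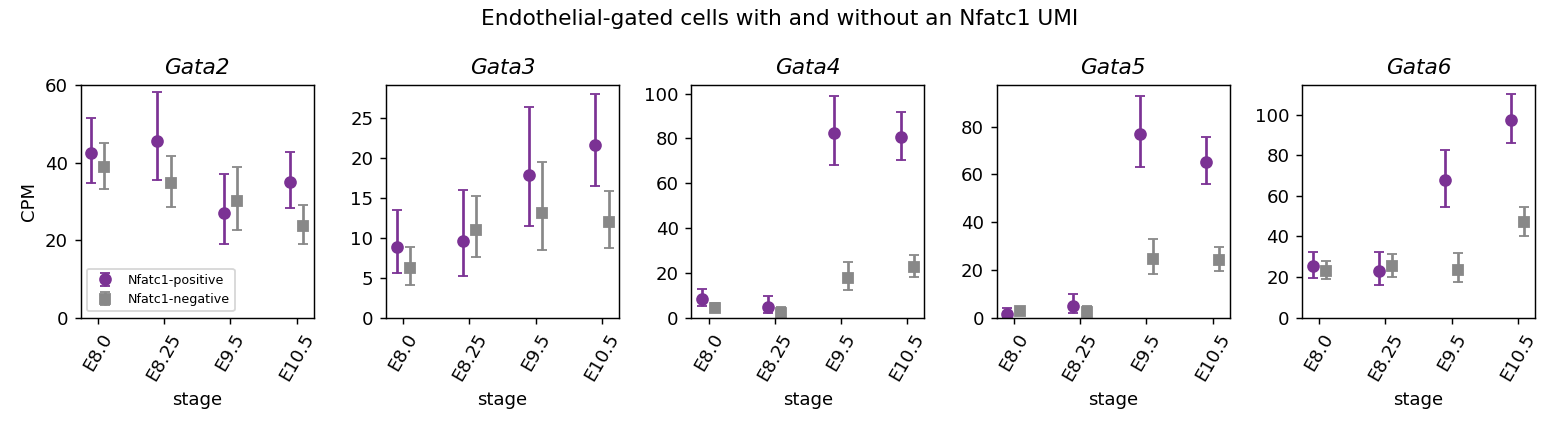
Level of Gata2 to Gata6 (vertical axis, CPM, a separate scale per panel) in endothelial-gated cells with (purple circles) and without (grey squares) an Nfatc1 UMI at each stage, with exact 95% Poisson intervals. For Gata4, Gata5 and Gata6 the symbols are close at the early stages and apart at the late ones, where Gata4 stands at 82.5 against 17.9 and 80.5 against 22.7 CPM.

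Detection in single cells was compared after each cell was thinned to 10000 UMIs, which kept 6180, 2859, 3490 and 6076 cells in stage order. These were 86.8%, 99.1%, 89.0% and 80.7% of the retained cells, and shallower cells were left out. At least 2 members were found in 20.1% (95% Clopper-Pearson interval 19.1 to 21.1), 10.2% (9.13 to 11.4), 27.0% (25.6 to 28.6) and 16.4% (15.5 to 17.4) of cells in stage order. Without thinning the shares were 35.2%, 32.1%, 37.7% and 22.0%. Gata6 alone was the most common pattern with any member, in 15.6%, 12%, 17.5% and 9.68% of thinned cells.

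Several members were often found in 1 cardiac cell. At least 2 were found in 73.3% (66.7 to 79.2), 59.4% (40.6 to 76.3), 47.6% (41.9 to 53.3) and 63.3% (54.3 to 71.6) of them in stage order. Gata4, Gata5 and Gata6 together, with no other member, were the most common pattern at E8.0, in 56 of 206 cells. At E9.5 the share was higher in mesothelial cells, at 67.2% (54.3 to 78.4), and 59.7% (47.0 to 71.5) in Nfatc1-positive endothelium, and blood cells stayed at 7.48%, 5.96% and 2.51% at E8.0, E8.25 and E10.5. In the blood gate, whose cells should lack the cardiac members, Gata4, Gata5 or Gata6 were each found in 0.680% to 3.45% of thinned cells at these 3 stages. Blood cells were deeper before thinning, with medians of 34717.5, 52460.5 and 28210 UMIs, and globin took up 456417 CPM of them at E10.5. Whether single detections have the same background in other gates was not tested.

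Within cardiac cells, Gata4 to Gata6 were found together about as often as the product of their single shares. Gata4 and Gata6 were both found in 43.7% of cells at E8.0 (36.8 to 50.8), beside a product of 40.6%, and in 29.3% at E9.5 (24.3 to 34.8), beside 28.1%. Gata5 and Gata6 were both found in 52.4% at E8.0, beside 52.5%. In endothelium at the late stages Gata4 and Gata5 lay above the product. They were both found in 15% of endothelial cells at E9.5 (9.85 to 21.5), beside 6.21%, and in 16.6% of those at E10.5 (12.6 to 21.1), beside 8.30%. Gata5 and Gata6 were at 12.5% beside 8.23% at E9.5, where the interval (7.81 to 18.6) held the product, and at 19.4% (15.2 to 24.2) beside 10.4% at E10.5. Cells with and without Nfatc1 differed in these members, and within the Nfatc1-positive cells Gata4 and Gata5 were both found in 29.9% (19.3 to 42.3) and 27.4% (20.1 to 35.7) at the late stages, beside a product of 18.7% at each. In the Nfatc1-positive cells of E9.5, Gata4 with Gata6 and Gata5 with Gata6 were each at 22.4% (13.1 to 34.2), beside 19.4%. Both intervals held the product. An excess over the product was not particular to endothelium. In splanchnic cells of E10.5 Gata4 and Gata5 were both found in 13.5% (11 to 16.5), beside 5.76%. The share was 16.5% (12.2 to 21.6) beside 10.4% at E8.0 and 16.5% (13.6 to 19.7) beside 9.55% at E9.5. At E8.25 it was 16.2% (9.90 to 24.4), and the interval held the product of 11.4%. In mesenchyme of E8.0, Gata4 and Gata6 were at 11.6% (7.47 to 16.8) beside 5.34%. Gata4 and Gata5 were there at 7.04% (3.90 to 11.5), which held the product of 4.09%.

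Over all retained cells Gata1 and the cardiac members were seldom in the same cell. At E10.5 Gata1 and Gata6 were both found in 28 of 6076 cells, or 0.461% (0.306 to 0.665), beside a product of 2.19%, and at E8.25 in 0.944% (0.623 to 1.37), beside 2.26%. Within the blood gate Gata1 and Gata6 were both found about as often as the product. The share was 2.72% beside 2.80% at E8.0 and 2.19% beside 2.42% at E8.25. Over all retained cells Gata1 and Gata2 were both found in 8, 7, 2 and 8 cells at the 4 stages. In blood cells that pair was found in 3 of 147 cells at E8.0, 5 of 319 at E8.25 and 6 of 956 at E10.5. At E8.0 and E8.25 these were 2.04% and 1.57%, beside products of 2.24% and 1.54%. Gata2 and Gata3 were both found in 3.75% of endothelial cells at E9.5 (1.39 to 7.98), beside a product of 3.50%.

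**Figure D5:**
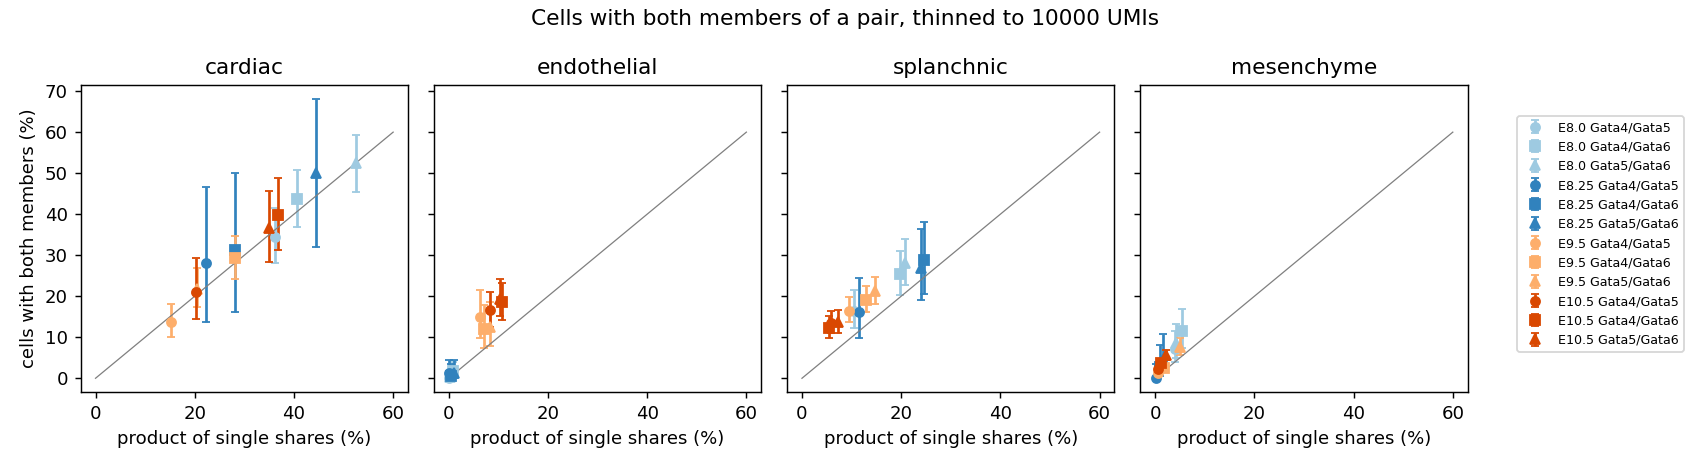
Share of cells with both members of a pair (vertical axis, %, exact 95% binomial intervals) against the product of the single shares (horizontal axis, %) in 4 compartments, with colours for stages and symbols for the pairs of Gata4, Gata5 and Gata6, and a grey line where they are equal. Cardiac points lie along the line, and late endothelial points lie above it, with Gata4 and Gata5 at 15% and 16.6%. Splanchnic points for Gata4 and Gata5 also lie above the line at each stage.

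Partner genes were counted in the same contrasts, leaving out gate markers. Of 10 cardiac partners, 7 were higher and 1 lower in cardiac than in endothelial cells, where 41.5% of all genes were called, with a median log2 fold change of 2.0 beside -0.02 over all genes. The largest changes were Nkx2-5 (6.88 ± 0.37, edgeR adjusted p = 2.8e-10), Hand1 (5.34 ± 1.21, adjusted p = 0.0019) and Isl1 (3.01 ± 0.36, adjusted p = 4.2e-06), all transcription factors of heart precursors. Against mesenchyme 6 were higher in cardiac cells and none lower, with 35.6% of all genes called. Tbx20, a T-box factor of heart and endocardium, was the 1 cardiac partner of 8 tested that was higher in Nfatc1-positive endothelium (1.65 ± 0.23, edgeR adjusted p = 0.0072), in a contrast that called 0.116% of genes. No gene was called there without the E10.5 library or without the library block, and without E9.5 the 1 gene called was Gata4. In splanchnic cells, Zfpm2 (2.25 ± 0.41, edgeR adjusted p = 0.0073), the FOG cofactor of Gata4, and Nkx2-5 (2.13 ± 0.32, adjusted p = 0.0018) were higher than in mesenchyme, the only 2 of 10, with 1.21% of all genes called.

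Of 12 haematopoietic partners 11 were tested over the compartments. In endothelium against blood 7 were lower and 1 higher, with 59.6% of all genes called and a median of -0.98 beside -0.02. Klf1 (-7.55 ± 0.39, edgeR adjusted p = 1.9e-10), Gfi1b (-6.51 ± 0.38, adjusted p = 6.0e-10) and Nfe2 (-6.30 ± 0.38, adjusted p = 7.2e-10), factors of red cells and megakaryocytes, were the largest. In endothelium against mesenchyme, with 32.9% of all genes called, 7 were higher and none lower, led by Lyl1 (6.49 ± 0.42, edgeR adjusted p = 3.1e-09), Lmo2 (5.86 ± 0.52, adjusted p = 1.9e-07) and Tal1 (4.98 ± 0.41, adjusted p = 7.5e-08), which form complexes with GATA factors. Of 5 genes with related zinc fingers 4 were tested, and Trps1 was the 1 that passed in any contrast. It was higher in mesenchyme than in cardiac cells (-1.18 ± 0.39, edgeR adjusted p = 0.024) and endothelium (-1.54 ± 0.38, adjusted p = 0.0043), and higher in endothelium than in blood (1.65 ± 0.53, adjusted p = 0.012).

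The genes closest to each member were ranked, with the members and the gate markers left out, by Pearson's r of log2(CPM + 1) over the 22 compartment sums, a description over sums that share libraries and depth. Gata1 was closest to Klf1 (r = 0.97), Gfi1b (0.97) and Trim10 (0.97), genes of red cell formation. Gata2 was closest to Exoc3l (0.98), Flt4 (0.98), a receptor of endothelial cells, and Sox7 (0.97), an endothelial transcription factor. Gata6 was closest to Tiparp (0.97), Bambi (0.95) and Zmiz1 (0.94). Gata4 had Tmem63b (0.89), B4galt6 (0.88) and Acbd5 (0.87), Gata5 had 1010001N08Rik (0.87) and Fgfrl1 (0.87), and Gata3 had Klhl5, Rab11fip3 and Zeb1 (each 0.82). Between members, r was 0.93 for Gata4 and Gata5, 0.86 for Gata4 and Gata6, 0.87 for Gata5 and Gata6, and -0.84 for Gata1 and Gata6.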

How the data were processed

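Single-cell 3' libraries (10x Genomics) of 4 stages were used. The deposited values are raw UMI counts per gene and cell, made by the authors with Cell Ranger 3.1.0 against mm10, with no normalization. Cells with at least 1000 genes and at most 10% mitochondrial UMIs were kept, and the top-ranked Scrublet cells, 0.8% per 1000 cells, were removed. Total UMIs were 151615964, 106020617, 70599266 and 127959940 from the earliest stage to the latest.

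Compartments needed a marker sum per 10000 UMIs of at least 50 (cardiac), 4 (endothelial), 200 (blood), 8 (mesenchyme), 5 (splanchnic) or 5 (mesothelial) and at least 3 detected markers (2 for blood). These cuts were set after the data were seen, and cells past more than 1 gate were dropped. The members and gene lists were chosen with earlier results of these data known. UMIs were summed over at least 20 cells per library and compartment, which gave 22 sums, and fitted in edgeR 4.0.16 (R 4.3.3) with the quasi-likelihood test, TMM scaling, filterByExpr, a library block and Benjamini-Hochberg adjustment at 0.05 over all 12207 genes tested, or 9451 in the endothelial split, which left 3 residual degrees of freedom. Compartments of 1 library are cells of the same pooled embryos, and p-values measure the spread between 4 libraries of different stages. The code was tested on simulated data.

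All 6 members are named throughout, with up to 3 called genes per partner list and contrast and the 3 nearest genes per member among 11847 with at least 200 UMIs, of which 1 is not reported here. Levels carry exact Poisson and shares exact Clopper-Pearson 95% intervals. Alternatives were library totals, DESeq2 1.42.0, no count filter, no cell filter, doublets kept, gate cuts halved and doubled, cells of several gates assigned, no block, each library left out, other thinning and scaling and, chosen after seeing the data, a splanchnic gate without Tbx5.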

Additional observations from a re-analysis of the deposited data

Results flagged for a closer look

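Gata5os, a gene antisense to Gata5, was counted outside the comparisons above and exceeded the 3 UMIs that a count of 0 allows in 3 of 4 libraries. It had 33 UMIs at E8.0, 24 at E9.5 and 22 at E10.5, against 3 at E8.25. These are 0.218, 0.340 and 0.172 CPM, beside 23.7 and 34.3 CPM of Gata5 in the first 2 of these libraries. Whether the counting used strand is not given in the sources used here.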

How the results depend on the processing

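Of the 17 called member differences among 35 tested, none changed direction in any alternative, and 22 of 238 recomputed values lost the call. Without the library block, 3 members in place of 5 passed between cardiac and endothelial cells, and 0 in place of 2 in the Nfatc1 split. That split kept 1 member with DESeq2, with doublets kept and with no cell filter. Between splanchnic cells and mesenchyme 0 members passed, against 2 with DESeq2 and 1 with no count filter or with cuts halved or doubled. With each library left out in turn, the members called numbered 2 to 5 (cardiac against endothelial, 2 without E8.0 or E8.25), 4 to 6 (endothelial against blood), 1 to 2 (endothelial against mesenchyme, 2 without E8.0), 0 to 1 (splanchnic, 1 without E10.5) and 0 to 2 (Nfatc1, 1 without E9.5 and 0 without E10.5). Gata3 between cardiac and endothelial cells was at an edgeR adjusted p of 0.050 with cuts halved, Gata4 there at 0.091 with no block, and Gata5 between endothelium and blood at 0.057 with cuts doubled. The causes were not tested.

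Differences that turned sign were uncalled in every fit. For Gata1 between cardiac and endothelial cells they were -0.50 (cuts halved), -0.16 (doubled) and -0.58 (no block), with -0.68 to 0.73 leaving out libraries. Between cardiac cells and mesenchyme Gata1 was -0.03 with library totals and -0.29 with no block, with -0.48 to 1.07 leaving out libraries, and Gata2 -0.88 to 0.19. Between endothelium and mesenchyme Gata1 was -0.08 with library totals and -0.31 to 0.35 leaving out libraries, Gata5 -0.30 to 1.11, and Gata6 0.05 (halved) and 0.34 (doubled), and 0.07 without E8.25. Between splanchnic cells and mesenchyme Gata1 was 0.54 with cuts doubled and Gata2 -0.84 to 0.12 leaving out libraries, 0.12 without E10.5.

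Genes called between splanchnic cells and mesenchyme numbered 148, against 237 with DESeq2, 224 and 256 with cuts halved and doubled and 21 with no block. The Nfatc1 split called 11, against 3 with DESeq2, 259 with no count filter, 19 with cuts doubled and 0 with no block. Cardiac against mesenchyme called 4342, against 2873 (doubled) and 2438 (no block), and endothelial against mesenchyme 4012, against 2497 and 2351. With libraries left out, genes called in the Nfatc1 split numbered 63 (without E8.0), 30 (E8.25), 1 (E9.5) and 0 (E10.5), and in the splanchnic contrast 106, 84, 28 and 95. Without E9.5, cardiac and endothelial cells against mesenchyme called 2582 and 2464.

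With globin, mitochondrial and ribosomal protein genes left out of the total, the levels in CPM were, in stage order, 10.7, 34.0, 2.44 and 28.9 (Gata1), 11.6, 6.92, 4.93 and 5.98 (Gata2), 10.1, 6.66, 9.56 and 12.9 (Gata3), 26.6, 11.3, 44.8 and 26.8 (Gata4), 33.4, 13.4, 46.2 and 31.7 (Gata5) and 75.9, 44.9, 104 and 70.3 (Gata6). The share of cells with at least 2 members was 8.79%, 4.40%, 13.3% and 8.73% at 5000 UMIs, 35.2%, 32.1%, 37.7% and 22.0% with no thinning, and 3.51%, 1.43%, 8.65% and 5.15% when a member needed 2 UMIs, so depth limits these shares. Over 20 further draws it stayed within 19.1% to 20.4%, 9.83% to 11.3%, 25.6% to 27.5% and 16.0% to 17.0%. No replicate numbers pair the stages, since each has 1 library, and the library block pairs the compartments within a library.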

Other observations

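Ungated cells held 62.9%, 51.1%, 35.6% and 31.5% of all Gata5 UMIs from the earliest stage to the latest. They were 81.0%, 73.0%, 45.9% and 35.9% of the retained cells. In ungated cells thinned to 10000 UMIs, those with a Gata5 UMI had more of the epithelial genes Epcam, Cdh1, Krt8 and Krt18 than those without, at 957 against 471 CPM at E8.0, 1202 against 316 at E8.25, 296 against 107 at E9.5 and 135 against 44.4 at E10.5. Cardiac markers stood at 355 against 125, 475 against 92.0, 994 against 355 and 591 against 130 CPM. Neither excess was particular to Gata5, since ungated cells with Gata4 or Gata6 had both at every stage. For Gata6 the epithelial genes stood at 853 against 398, 934 against 232, 256 against 79.2 and 111 against 40.1 CPM. Cells with Gata3 also had more of the epithelial genes, with 737 against 348 CPM at E8.25. All of these are sums over cells of 1 library per stage, with no test.

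Gatad1, Gatad2a and Gatad2b share part of the name but are not members. Gatad1 had 114, 85.3, 109 and 68.4 CPM over the 4 stages, above every member at each stage.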
